A study of Orbicella faveolata with 48 samples.

Results

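Offshore fragments of the mountainous star coral Orbicella faveolata that had been heated for 31 days at 32 °C were compared with offshore fragments heated for 5 days at 33 °C, 3 libraries against 3. The 6 libraries were all those of the 48 in the series whose labels gave an offshore origin, an elevated temperature and 1 of these days. The fragments of 5 days carried the colony tags C1, C2 and C5 and those of 31 days the tags C2, C4 and C5, so 2 tags stood in both groups. Their controls were 6 offshore fragments held at 30 °C, 3 on each day, with the same tags as the heated fragments of that day. All fragments were acclimated first, and the heated ones then reached their temperature by a gradual rise. Day and temperature changed together in the heated arm, so that duration and temperature cannot be told apart. The genotype labels, O1, O2 and O5, did not follow the tags: C1 and C2 were O1 and O2 at 5 days, C2 and C4 were O1 and O2 at 31 days, and C5 was O5 on both. The sample descriptions put the letters gen before each tag, but nothing in the labels says whether a tag was 1 colony. With 3 fragments a group the p-values measure the spread between these fragments. Inshore fragments, 9 a group, on the same days and at the same temperatures, were used as a reference. They carried the genotype labels In1, In2, In3 and In4, with more than 1 fragment of some labels in each group.

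A reef coral is an animal that houses single-celled algae of the family Symbiodiniaceae inside the cells of its gut lining. The algae pass sugars to the host, and under heat the partnership breaks down and the algae are lost or degraded, which is called bleaching. Different algal lineages tolerate heat to different degrees, and a coral can hold more than 1 lineage, so the mix can shift while the total falls or recovers. Host cells meet heat first with an acute stress response, and the transcriptome of a fragment that stays warm for weeks need not be that of its first days.

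RNA of whole coral tissue was sequenced from stranded mRNA libraries and deposited as estimated counts for 87440 coral features and 93246 features of a second table, here called algal. A feature is 1 assembled transcript. No gene names were paired with features in the files used here, so neither the tissue's marker genes nor pathways could be examined, and no sequence is shown. The 6 heated libraries held 5710911 to 6674417 coral counts. No pair of heated libraries within a day agreed within sampling noise, with a chi-square per degree of freedom of 12.8 or more. The 31-day control of C4 stood apart: its Spearman correlation of log2 CPM (counts scaled to a library total of 1000000) with the other 11 offshore libraries was 0.741 to 0.833, against 0.815 to 0.966 among those 11, and its 100 most abundant coral features held 27.4% of its coral counts.

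The algal share of all counts was low on both days and showed no common direction between them. At 5 days it was 1.0% in C1 (95% Wilson interval 0.993 to 1.01, counting error only), 1.09% in C2 and 8.47% in C5. At 31 days it was 1.12% in C2, 2.45% in C4 and 4.48% in C5. The offshore controls held 14.1% to 18.9% at 5 days and 11.2% to 16.0% at 31 days, above each of the 6 heated libraries. The ratio of algal to coral counts, on the log2 scale, was -5.52 ± 1.81 (SD, n = 3) at 5 days and -5.40 ± 1.03 (n = 3) at 31 days. The difference of 0.12 lay within the spread between fragments (exact permutation test, two-sided, p = 0.8, where 3 against 3 can reach no p below 0.1). Within C2 the ratio changed by 0.04, and within C5 by -0.98, on the log2 scale. In such bulk libraries fewer algal cells and less RNA per algal cell cannot be told apart.

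The make-up of the algal RNA differed between the days more than its total did. Algal features were divided with the 18 inshore control libraries, in which 1 axis of variation held 89.7% of the variance of 38446 algal features. The 17833 features at 1 end of this axis are called set 1 and the 18155 at the other end set 2. What organism either set comes from is not given in the files. Set 2, the kind that made up most of the 2 sets' counts in offshore controls, stood at 1605, 3713 and 13842 counts per 1000000 coral counts in the heated C1, C2 and C5 of 5 days. At 31 days it stood at 139, 141 and 214 in C2, C4 and C5. The 2 groups did not overlap, and the lowest value of 5 days lay above the highest of 31 days. The mean log2 level was 12.1 ± 1.57 (SD, n = 3) at 5 days and 7.33 ± 0.35 (n = 3) at 31 days, a 27.0-fold lower level (exact permutation p = 0.1, two-sided, the smallest the design allows). It was 15.1-fold lower without C5 of 5 days and 44.4-fold lower without C1. Within the same tag it was 26.6-fold lower in C2 and 64.7-fold lower in C5. The controls' set 2 level differed by -0.39 on the log2 scale between the days, within their spread (exact permutation p = 0.3). Against its own control, set 2 was 122-fold, 36.5-fold and 13.6-fold lower in the heated C1, C2 and C5 of 5 days, and 1020-fold, 746-fold and 694-fold lower in C2, C4 and C5 of 31 days. These ratios share their heated libraries with the comparison between the days. The 31-day set 2 levels rest on 880, 804 and 1344 counts in C2, C4 and C5. In the inshore heated B2 of 31 days, where set 1 made up 99.6% of both sets, set 2 still stood at 305. Whether such low levels are a residual was not tested, so the size of the 31-day ratios is uncertain.

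Set 1 made up the other side of this difference, although its level per coral count varied widely among fragments. It stood at 956, 1734 and 62650 counts per 1000000 coral counts in C1, C2 and C5 at 5 days and at 5814, 17743 and 36234 in C2, C4 and C5 at 31 days. The groups overlapped because C5 was high on both days, and the difference of 1.72 on the log2 scale was within the spread (exact permutation p = 0.5). Within C2 set 1 was 3.35-fold higher at 31 days, and within C5 it was 1.73-fold lower. Of the counts of both sets together, set 1 made up 37.3%, 31.8% and 81.9% at 5 days and 97.7%, 99.2% and 99.4% at 31 days, so that each fragment of 31 days lay above each of 5 days. In the controls this share ran from 0.20% to 5.78%, with the highest value in C5 at 31 days. Of all algal counts in the heated fragments, those outside both sets made up 74.6%, 50.4% and 17.3% at 5 days and 47.2%, 28.7% and 22.2% at 31 days. Among inshore heated fragments, 9 on each day, set 1 made up 0.477% to 99.7% at 5 days and 0.673% to 99.7% at 31 days, with medians of 9.85% and 96.7%.

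**Figure D1:**
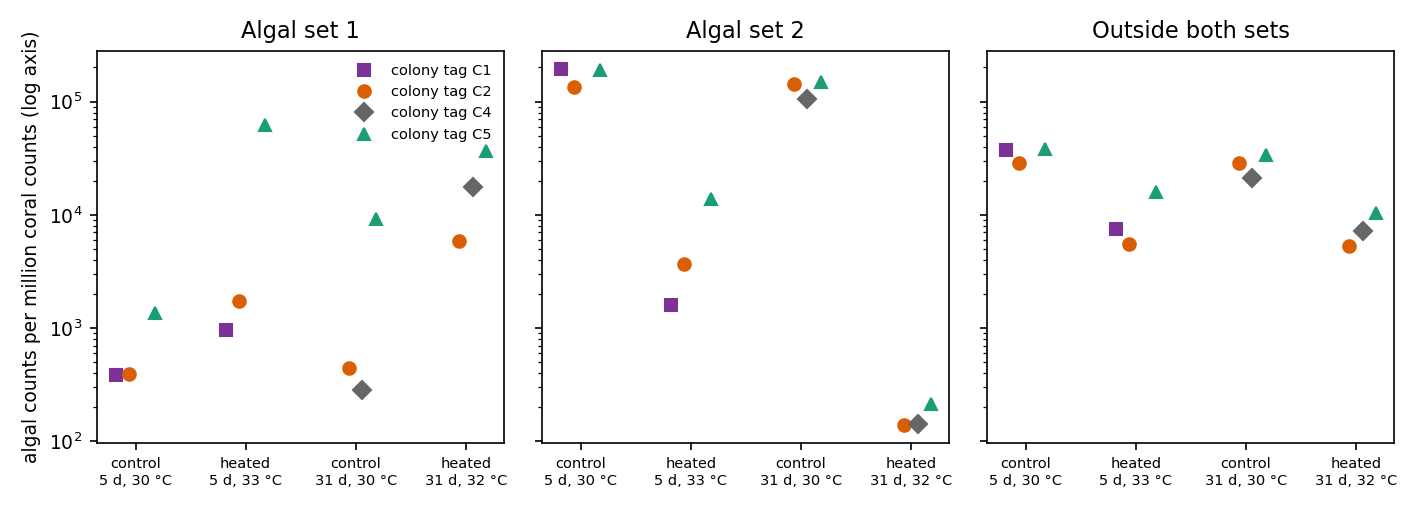
Algal counts per 1000000 coral counts (log axis) in the 12 offshore libraries, for set 1, set 2 and the algal features outside both, by group; each point is 1 library and its shape and colour give the colony tag. Set 2 lay at 139 to 214 in the 3 heated libraries of 31 days, below the 1605 to 13842 of the heated libraries of 5 days, while set 1 of the 2 groups overlapped.

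A small number of features of the coral table carried the same pattern. Of the 31401 coral features tested, 30 had a Spearman correlation of 0.9 or more with set 2 over the 36 inshore libraries. Their summed CPM was 10.2, 22.6 and 67.7 in C1, C2 and C5 at 5 days and 3.66, 2.57 and 4.11 in C2, C4 and C5 at 31 days. In the controls the same sum was 553 to 845, so the 30 features were scarce in all 6 heated libraries and scarcer at 31 days. Their median log2 difference was -3.75 against 0.01 over all features tested, with 27 lower and 1 higher. The 19 features that tracked set 1 as closely had a median of -0.12 and summed to 19.7, 25.4 and 241 CPM at 5 days and 36.9, 83.2 and 146 at 31 days. Inshore, set 1 held most of both sets' counts in each library of label In1 and in some of In2 and In3, so that set and coral genotype were partly shared. Of the 20 coral features with the smallest p between the days, 11 were features that tracked set 2 in this way.

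Coral transcriptomes were ordered by colony tag before day. Over the 31401 coral features, the heated libraries of 5 and 31 days with the same tag had Spearman correlations of log2 CPM of 0.944 for C2 and 0.958 for C5. The 7 pairs of heated libraries of other tags across the days had 0.831 to 0.876, close to the 0.847 to 0.870 of the 6 pairs within a day. The 2 pairs that shared a genotype label but not a tag had 0.831 and 0.872. After the group means were removed, the same-tag pairs correlated at 0.604 and 0.570, and the pairs with the same label and another tag at -0.143 and -0.116. Over all arms, 8 same-tag pairs across days correlated at 0.423 to 0.606 in this way, and 8 pairs that shared a label alone at -0.143 to 0.029. In these correlations the tags, and not the labels, joined libraries across days. A comparison of 3 with 3 in which 1 tag differs on each side thus holds a difference between tags within it.

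**Figure D2:**
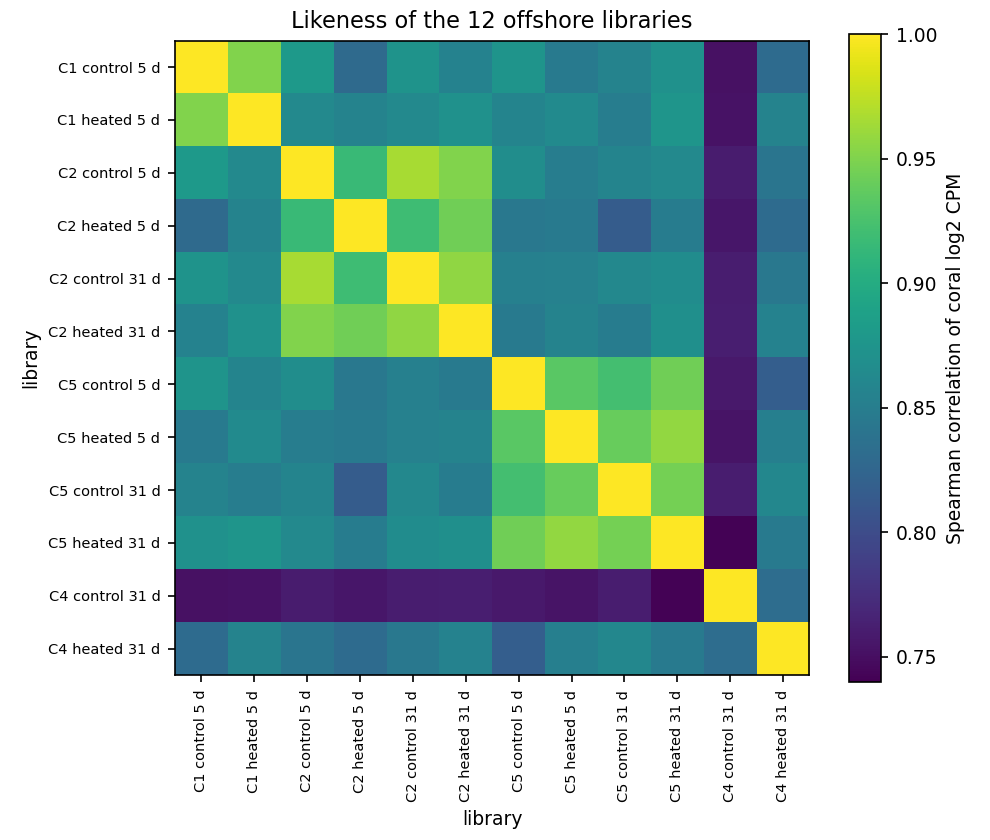
Spearman correlation of coral log2 CPM between each pair of the 12 offshore libraries, ordered by colony tag (colour scale at the right). Libraries of C2 and of C5 form blocks of 0.919 and more across days, other tags lie lower, and the 31-day control of C4 lies lowest, at 0.741 to 0.833.

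No coral feature passed the test between the heated groups. With edgeR's quasi-likelihood test on the 12 offshore libraries, 0 of 31401 features (0%) had a Benjamini-Hochberg adjusted p under 0.05, and the smallest adjusted p was 0.427. At an unadjusted p under 0.05 there were 308 higher (0.981%) and 279 lower (0.889%) at 31 days. In 1033 features (3.29%) each heated library of 31 days lay above each of 5 days, and in 1091 (3.47%) each lay below, 6.76% together. Among the 6 offshore controls, which share no library with the heated ones, 12% of features separated the days in this way. DESeq2 on the same libraries called 17 features between the heated groups, 5 higher and 12 lower.

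The controls between the days gave 0 called features with edgeR (2335 at an unadjusted p under 0.05, and 2 called by DESeq2). The difference between the heated and the control change also gave 0 (596 at an unadjusted p under 0.05, 1 called by DESeq2). The change in offshore heated fragments minus that in the 18 inshore heated fragments of the same days and temperatures gave 0 of 36022 (1509 at an unadjusted p under 0.05, 19 called by DESeq2, of which 15 were positive and 4 negative). That edgeR called none does not show that the changes were alike.

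Features were named by rule: those with the lowest p that separated the groups and did not track the algae, 2 each way. OFAVBQ_DN197171_c0_g1_i1 was the first of those higher at 31 days. It stood at 2.96, 1.95 and 0.942 scaled CPM in the heated C1, C2 and C5 of 5 days and at 9.15, 12.7 and 19.1 in C2, C4 and C5 of 31 days. The controls stood at 5.68, 3.10 and 2.62 at 5 days and at 4.95, 5.28 and 11.2 at 31 days. Heated fragments of 5 days thus lay lowest of the 4 groups in their mean and those of 31 days highest, although the C5 control of 31 days overlapped the latter. The log2 difference between the heated groups was 2.79 (SE 0.54), with an adjusted p of 1 in edgeR and of 0.00589 in DESeq2. In the inshore heated fragments, which are other libraries, the same feature was higher at 31 days by 2.85 on the log2 scale (edgeR adjusted p = 0.0127). That fit held no genotype term, so inshore fragments that share a genotype label counted as separate replicates.

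OFAVBQ_DN222734_c1_g1_i40, the second of those higher, stood at 9.32, 5.53 and 4.71 scaled CPM at 5 days and at 16.3, 25.4 and 22.3 at 31 days in the heated fragments. All 6 controls lay between 2.22 and 6.29, below each heated fragment of 31 days. Its log2 difference was 1.71 (SE 0.38), with an adjusted p of 1 in edgeR and of 0.0343 in DESeq2. In the inshore heated fragments the difference between the days was 0.32 and did not pass (edgeR adjusted p = 0.77). Against inshore controls it was higher under heat at 31 days by 1.34 on the log2 scale (edgeR adjusted p = 0.0099), and its difference of 0.65 at 5 days did not pass (adjusted p = 0.43).

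OFAVBQ_DN206861_c3_g1_i1 was the first of those lower at 31 days. Its heated values were 31.4, 32.7 and 29.8 scaled CPM at 5 days and 16.0, 13.8 and 15.2 at 31 days, with little spread in either group. The controls stood at 12.2, 14.2 and 17.1 at 5 days and at 12, 10.9 and 10.5 at 31 days, so that the heated fragments of 5 days were the ones apart. The log2 difference was -1.06 (SE 0.20), with an adjusted p of 1 in edgeR and of 0.000436 in DESeq2, which became 0.098 with colony tag as a block. In the inshore heated fragments the difference between the days was -0.18 and did not pass (edgeR adjusted p = 0.799). Against inshore controls it was higher under heat at 5 days by 0.71 on the log2 scale (edgeR adjusted p = 0.00874), and at 31 days the difference was 0.64 (adjusted p = 0.0706).

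OFAVBQ_DN217692_c1_g2_i3, the second of those lower, differed by tag. Its heated values were 548, 400 and 127 scaled CPM in C1, C2 and C5 at 5 days and 42.8, 62.7 and 124 in C2, C4 and C5 at 31 days. The 2 values of C5 were nearly equal and lay closest across the gap between the groups, while the other fragments lay further apart. The log2 difference was -2.23 (SE 0.54; adjusted p of 1 in edgeR and of 0.0394 in DESeq2, or 0.256 with colony tag as a block), against -3.21 within C2 and -0.04 within C5. The controls stood at 127 to 253 at 5 days and at 106 to 148 at 31 days. In the inshore heated fragments the difference was -0.70 and did not pass (edgeR adjusted p = 0.53).

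**Figure D3:**
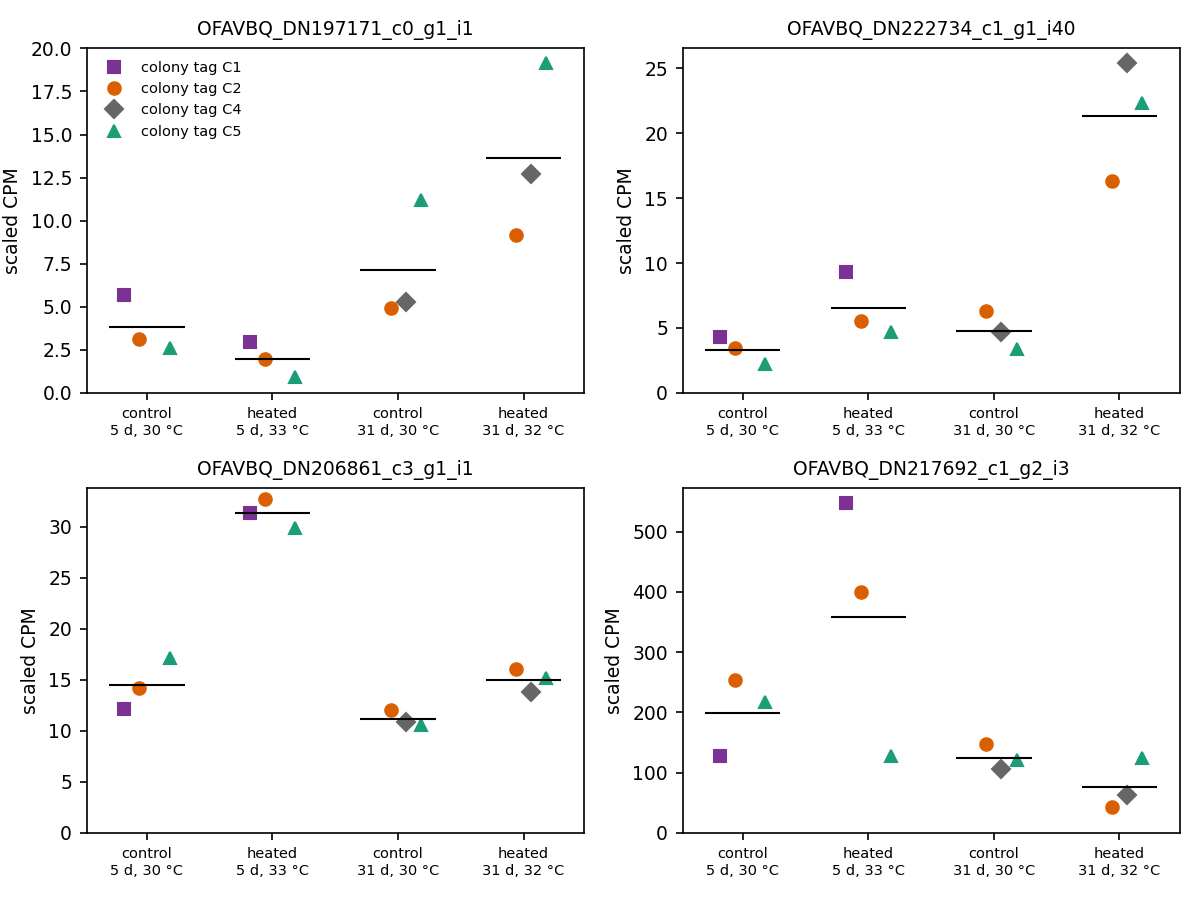
Scaled CPM of the 4 named coral features in the 12 offshore libraries, by group; each point is 1 library, its shape and colour give the colony tag, and the bar is the group mean of 3. OFAVBQ_DN206861_c3_g1_i1 stood near 30 in the heated fragments of 5 days and at 10.5 to 17.1 in the other 9 libraries.

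The 2 tags found on both days, each taken here as 1 colony although the labels do not say so, allowed a comparison within a colony. Among 13764 features with a mean of 10 CPM or more, the heated C2 was at least 2-fold higher at 31 days in 571 (4.15%) and at least 2-fold lower in 498 (3.62%). The heated C5 was higher in 246 (1.79%) and lower in 244 (1.77%). The control pair of C2 gave 97 higher (0.705%) and 141 lower (1.02%), and the control pair of C5 gave 682 (4.95%) and 787 (5.72%). The heated change thus exceeded the control change in C2 but not in C5. Each count compares 1 library with 1 and has no replicate. In both colonies 87 features were 2-fold higher, 15.2% of those of C2 and 35.4% of those of C5, and 49 were 2-fold lower, 9.84% and 20.1%. A further 43 passed 2-fold in opposite directions. Over all 13764 features the sign of the change was shared by 50.5%.

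The features that were 2-fold higher in both colonies were low in the heated fragments of 5 days rather than high in those of 31 days. For the 87, the median scaled CPM was 6.19 in C2 and 9.26 in C5 at 5 days under heat, and 29.6 in C2 and 31.8 in C5 at 31 days. Their controls had 37.1 and 26.8 at 5 days and 31.6 and 33.6 at 31 days, close to the heated values of 31 days. The unpaired heated fragments did not separate in this way, with a median of 24.4 in C1 at 5 days and 18 in C4 at 31 days. In inshore libraries, which had no part in choosing them, 72 of the 86 tested were lower under heat at 5 days and 41 were called lower (edgeR, adjusted p under 0.05), where 6.83% of all features were. At 31 days 77 of 86 were lower inshore under heat and 13 were called, against 2.79% of all features. Between the days, inshore heated fragments called 3 of 85 of them higher, against 1.02% of all. Inshore controls moved with time as well: 67 of 86 were higher at 31 days, against 12792 of 25408 of all. Of the 86, 5 were called higher and 4 lower, against 0.268% and 0.535% of all.

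With colony tag as a block and the 6 heated libraries alone, edgeR called 37 of 28344 features (0.131%), 31 higher (0.109%) and 6 lower (0.0212%) at 31 days, with log2 differences from -5.60 to 5.75 and none smaller than 1.62 in size. In this fit C1 and C4 each take up their own block, so the 37 rest on the pairs of C2 and C5 with 1 residual degree of freedom. With the block in all 12 libraries the count was 0 (1269 at an unadjusted p under 0.05). There 37 of the 37 had the same sign, but that fit draws on the same heated pairs of C2 and C5. The shared sign is therefore no separate support. Of the 37, 1 was among the features that tracked algal RNA.

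Of the 31 features called higher, 28 were among the 87 (90.3% of the 31 and 32.2% of the 87), as both sets were chosen on the pairs of C2 and C5. Their median scaled CPM in the heated fragments of 5 days was 31.5 in C1, 6.02 in C2 and 10.4 in C5, and at 31 days it was 36 in C2, 18.7 in C4 and 43.3 in C5. The controls had 40.2, 39.2 and 24.8 at 5 days and 32.0, 37.6 and 35.0 at 31 days. C2 and C5 were therefore low at 5 days under heat and near control level at 31 days, while C1 was not low at 5 days. C4 lay below C1 in 23 of the 31, against the direction of the call. In the inshore libraries 23 of 30 were lower under heat at 5 days, of which 9 were called, against 6.83% of all features, and 1 was called higher. At 31 days 28 of 30 were lower inshore under heat and 6 were called, against 2.79%. In inshore controls 25 of the 31 were higher at 31 days than at 5 days and 2 were called, against 0.268%. Within the controls the median log2 change of the 31 was -0.19 in C2 and 0.27 in C5.

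Of the 6 features called lower, 4 were higher in each heated fragment of 5 days than in each of 31 days, against 3.47% of all 31401 features. The 6 were called on the pairs of C2 and C5 in these same libraries, so this count is no separate support. These 4, picked out after their values were seen, are described here. The first stood at 77.7, 62.0 and 15.1 scaled CPM in the heated C1, C2 and C5 of 5 days and at 4.57, 4.99 and 2.05 in C2, C4 and C5 of 31 days. Its controls were at 1.57, 0.653 and 6.86 at 5 days and at 1.33 and 1.36 in C2 and C5 at 31 days, but at 93.3 in C4. The second stood at 288, 53.2 and 38.0 under heat at 5 days and at 3.51, 14.3 and 7.59 at 31 days. Its 31-day control of C4 was high as well, at 177. Its control of C5 at 5 days, at 31.7, was close to the heated C5 of that day, while those of C1 and C2 were lower, at 9.41 and 2.0. The identifiers of the first and the second, OFAVBQ_DN222891_c1_g1_i11 and OFAVBQ_DN222891_c2_g1_i3, share the part DN222891. Whether both come from 1 gene was not tested, so they may not be separate cases. The third stood at 14.5, 11.6 and 4.40 at 5 days, at 1.52, 2.90 and 0.474 at 31 days, and at 25.8 in the 31-day control of C4. The fourth stood at 7.99, 33.5 and 7.69 under heat at 5 days and at 5.49, 1.61 and 1.90 at 31 days. Its 31-day control of C4 was not high, at 0.880. Another of the 6 differed between the days in the controls as well: in C2 and C5 it stood at 113 and 285 scaled CPM under heat and at 657 and 348 in controls at 5 days, but at 7.01 and 0.948 under heat and at 4.19 and 2.72 in controls at 31 days. Inshore, 4 of the 6 were called higher under heat at 5 days, against 6.73% of all features.

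**Figure D4:**
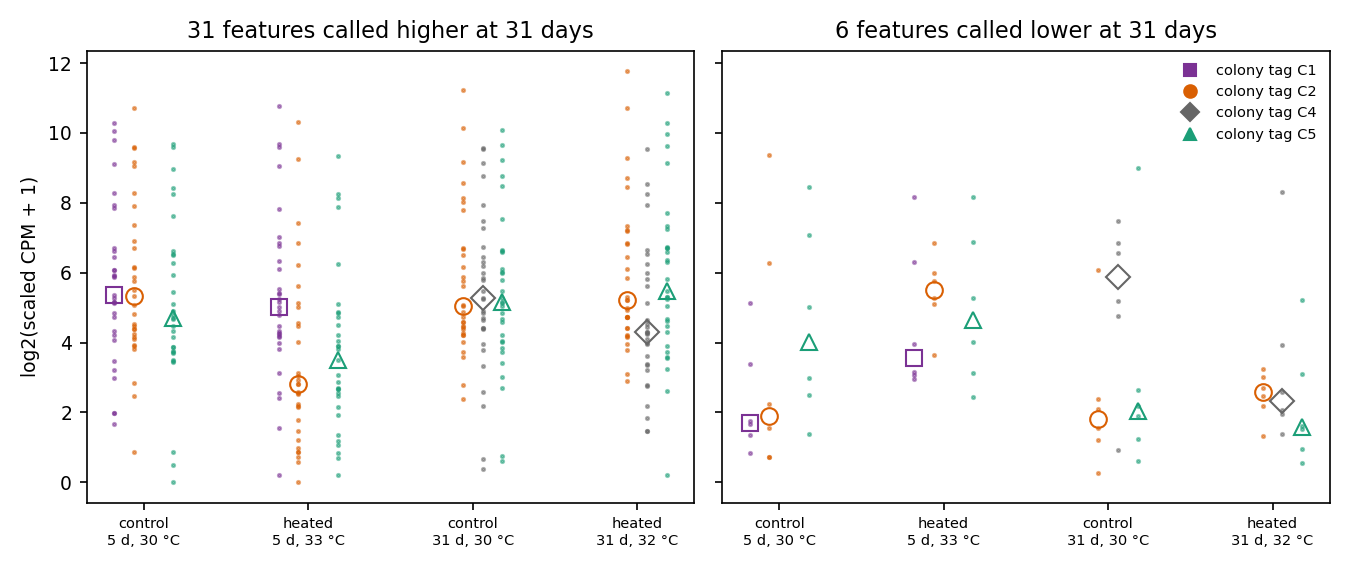
Levels, as log2(scaled CPM + 1), of the 31 and the 6 coral features called between the heated days with colony tag as a block, in each of the 12 offshore libraries; small points are features and large open symbols the median of each library. For the 31, the medians of heated C2 and C5 at 5 days, 6.02 and 10.4 CPM, lay lowest, while C1 and C4 ran against the direction of the call.

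To place the 2 heated states on a scale set by other corals, the features called in the inshore fragments were followed in the offshore ones. Inshore, 1727 features rose and 1760 fell under heat at 5 days, 13.4% of those tested. Of those that rose, 257 rose at least 2-fold, and 251 of these were tested offshore. Their median level, relative to the mean of the 11 offshore libraries other than the 31-day control of C4, was 0.49, 0.95 and 0.37 on the log2 scale in the heated C1, C2 and C5 of 5 days. It was 0.31, 0.15 and 0.14 in C2, C4 and C5 of 31 days. The controls lay at -0.87, -0.56 and -0.38 at 5 days and at -0.39, -1.13 and -0.36 at 31 days. Each heated fragment of 31 days thus lay below each of 5 days and above each control. The median log2 difference between the heated groups over the list was -0.38, with 175 of 251 lower, where all tested features had a median of 0.01 with 15358 of 31401 lower. It was -0.57 within C2 and -0.20 within C5, and 0.19 and 0.11 in the control pairs. In 20.3% of the list each heated library of 31 days lay below each of 5 days, against 3.47% of all features.

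The whole list of 1712 tested features that rose inshore at 5 days had a median of -0.12, with 1094 lower (63.9%), and 11.3% lay wholly lower at 31 days. The medians of heated minus control for the features that rose at least 2-fold were 1.18, 1.40 and 0.76 on the log2 scale in C1, C2 and C5 at 5 days. They were 0.56, 1.19 and 0.38 in C2, C4 and C5 at 31 days. In C2 and C5 the difference between heated and control was smaller at 31 days, and in C4 it rests on the control that stood apart. The inshore features that rose under heat at 31 days had 679 tested offshore (2.61% of the features tested in both), a median of -0.19 between the offshore heated groups and 485 lower. The levels of this whole list did not separate the days: the heated C4 of 31 days, at 0.23, lay above the heated C1 and C5 of 5 days, at 0.18 and 0.21. The 162 that rose at least 2-fold did separate them. Their levels were 0.38, 1.27 and 0.45 in C1, C2 and C5 at 5 days and 0.27, 0.36 and 0.11 in C2, C4 and C5 at 31 days. Their median difference was -0.53, with 129 of 162 lower, against 15358 of 31401 over all features. The 5-day control of C5, at 0.18, lay above the heated C5 of 31 days.

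The features that fell inshore under heat at 5 days did not separate the days as clearly. For the 594 tested offshore that fell at least 2-fold inshore, the median level was -0.21, -0.69 and -0.52 in the heated C1, C2 and C5 of 5 days. It was -0.00 in C2, -0.81 in C4 and -0.20 in C5 of 31 days, so that C4 lay below all 3 fragments of 5 days. The median difference was 0.11 with 367 of 594 higher, against 16039 of 31401 over all features, and it was 0.57 within C2 and 0.29 within C5. Without the heated C2 of 31 days its sign turned. The controls themselves differed over this list, with medians of -0.50 in C2 and -0.75 in C5 between the days, in the direction opposite to the heated pairs. The control level at 5 days was 0.37, 0.73 and 1.02, and at 31 days 0.15, 0.20 and 0.25. Heated minus control was -0.57, -1.45 and -1.49 in C1, C2 and C5 at 5 days and -0.15, -1.02 and -0.44 in C2, C4 and C5 at 31 days.

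**Figure D5:**
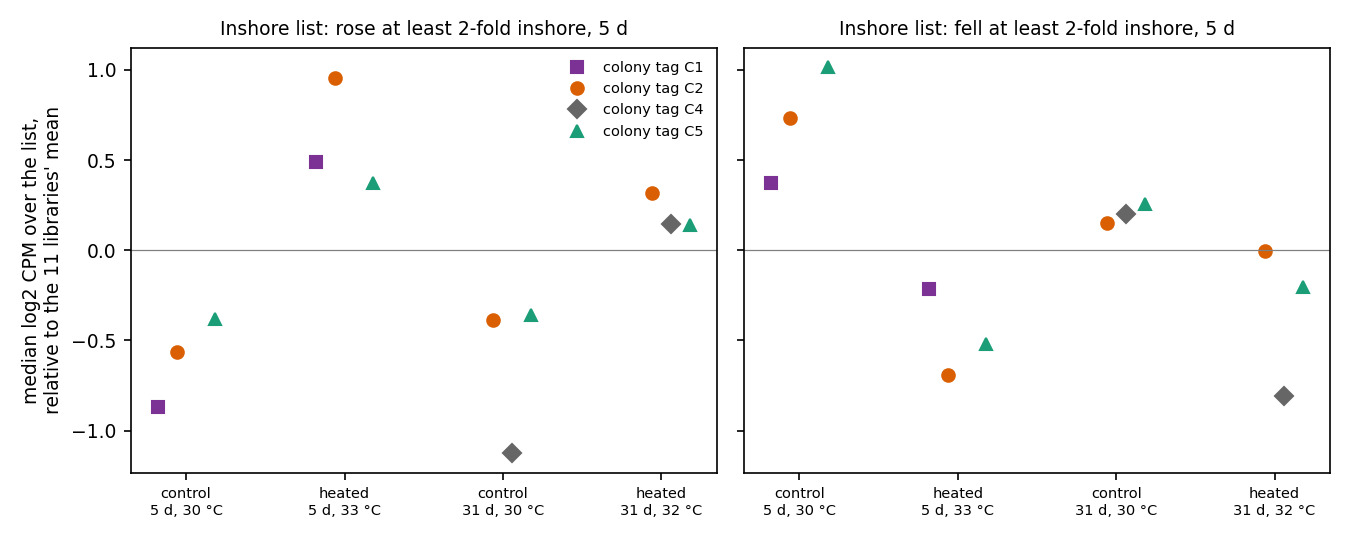
Median log2 CPM of 2 inshore lists in each of the 12 offshore libraries, relative to the mean of the 11 libraries other than the 31-day control of C4; each point is 1 library. In the list that rose inshore the heated libraries of 31 days, 0.14 to 0.31, lay between those of 5 days, 0.37 to 0.95, and the controls, and in the list that fell C4 of 31 days lay lowest at -0.81.

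Lists of features that changed with time inshore were followed in the same way. Between days 5 and 31, 266 features rose (1.02%) and 296 fell (1.13%) in the inshore heated fragments, and these had offshore medians of 0.16, with 202 higher, and of -0.27, with 245 lower. Within C2 the medians were 0.38 and -0.58, and within C5 they were -0.27 and 0.03, so that C2 followed the inshore direction and C5 did not. In the offshore controls, among them the C4 that stood apart, the same lists had larger medians, 0.60 with 215 higher and -0.48 with 240 lower. Within the control pairs the medians were 0.15 and -0.05 in C2, smaller than under heat, and 0.55 and -0.62 in C5. The shift was thus not one of heated fragments alone. The 68 features that rose (0.268%) and the 136 tested that fell (0.535%) with time in the inshore controls had offshore heated medians of 0.25, with 51 higher, and -0.34, with 110 lower. Their medians in the offshore controls, among them the C4 that stood apart, were -0.12 and -0.53. Within the control pairs they were 0.18 and -0.38 in C2, and 0.51 and -1.05 in C5, in the inshore direction. For the 68, the median relative level at 31 days was -1.46 in the control of C4, against 0.32 in C2 and 0.19 in C5. The -0.12 is thus no sign that these features failed to rise in the other offshore controls.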

How the data were processed

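The authors deposited estimated counts per assembled transcript, 1 coral table and 1 algal table. The tables are named for kallisto, per the file names, while Trimmomatic 0.36 and RSEM are named, with no role, per the submitters' processing notes; the reference used is not given in the sources used here. Of the deposited estimated counts, 23.6% (coral) and 3.07% (algal) were not whole, and all were rounded. An inshore 5-day control, BLY6, was taken from the column named BL6, since no other sample remained.

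Tests of coral features used R 4.3.3 and edgeR 4.0.16, with filterByExpr on 4 groups, TMM library sizes, and the quasi-likelihood test with Benjamini-Hochberg adjustment at 0.05 over all 31401 features of the 12 offshore libraries, with 4 group means and 8 residual degrees of freedom. Scaled CPM use the TMM library sizes, and log2 CPM a prior of 2. Inshore lists came from separate inshore fits of 18 libraries a contrast, with genotype label as a term in the 2 heat contrasts. The 2 time contrasts held no such term, so fragments that share a label counted as separate replicates there. Algal sets held features with a mean of 5 CPM or more and a correlation of at least 0.9 in size with the axis named in the report. Algal-tracking features had a Spearman correlation of at least 0.6 with a set over the inshore libraries (1136 of those tested). Single values per library were compared with exact permutation tests in scipy 1.17.1. Estimated log2 differences were checked on simulated counts with planted changes. That check set no limit on the number of features called. Alternatives were DESeq2 1.42.0, other scalings, no filter, other sample sets, blocks and leaving out libraries.

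Colony tags were taken to pair fragments across days, since all 8 same-tag pairs correlated above 0.1 after the group means were removed (0.423 to 0.606). Only C2 and C5 are in both heated groups, so the block is an alternative and its value stands beside the result.

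The features named, 2 higher and 2 lower, are those of smallest p whose groups did not overlap in CPM and which were not algal-tracking. The members, the lists and the alternatives with fewer libraries and a block were chosen with earlier results of these data known. Lists of genes by product name could not be applied, since the files do not pair features with names.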

Additional observations from a re-analysis of the deposited data

How the results depend on the processing

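Between the heated groups, 0 features were called with other scalings, with no filter, with summed counts per assembled gene (which equal the features here), without algal-tracking features, with genotype label as a term, with all 48 libraries, with the 6 heated libraries alone and without any 1 of the 12 libraries. DESeq2 called 17. With colony tag as a replicate block in the 12 libraries the count was 0. Chosen after the data were seen were further blocked fits: 37 features with the 6 heated libraries alone, 27 with the heated C2 and C5 alone (23 of them among the 37), 1 without the 31-day control of C4, 1 with tags C2 and C5 alone, 5 with all 48 libraries, and 59 with DESeq2 or 61 with DESeq2 on the 6 heated libraries (12 and 32 of them among the 37). The cause of these differences was not tested. For the control groups the count of 0 became 2 with DESeq2 and 12 with all 48 libraries, and 0 to 1 on leaving out a library (1 without the heated C4 of 31 days). With the replicate block it was 31 with the 6 controls alone, 7 without the 31-day control of C4, 3 with C2 and C5 alone and 21 with DESeq2. The heated minus the control change gave 1 with DESeq2 and 3 with DESeq2 and the replicate block. The offshore minus the inshore heated change gave 19 with DESeq2 and 0 under its other alternatives. With all 48 libraries the control count of 12 became 0 with the block. With DESeq2 the block ended the calls of OFAVBQ_DN206861_c3_g1_i1 and OFAVBQ_DN217692_c1_g2_i3.

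The algal to coral log2 ratio difference of 0.12 ranged from -0.43 to 1.17 on leaving out a heated library and was -0.47 over the pairs of C2 and C5, with no call. The set 2 difference of -4.75, -5.38 over those pairs, ranged from -5.47 to -3.92 (chosen after the data were seen). The 4 named features kept their direction in all 29 alternatives each. They were chosen for groups that did not overlap in these same libraries, so their shared direction is no separate support. As differences of mean log2 CPM, the list that fell inshore at 5 days had a median of 0.05, or -0.0129 to 0.147 on leaving out a heated library (-0.00806 without C2 of 5 days, -0.0129 without C5 of 31 days). The part of it that fell at least 2-fold had 0.12, or -0.028 to 0.348 (-0.028 without C2 of 31 days). The list that rose at least 2-fold stayed between -0.492 and -0.293. Library totals moved the median of all features to 0.08, from 0.02 with TMM. Depth limits features of a few CPM, and 3 fragments a group limit every test.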
